A study of Homo sapiens with 6 samples.

Results

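The 10 genes described here encode the proteins that decide whether a cell in G1 goes on to copy its DNA: the D-type cyclins *CCND1*, *CCND2* and *CCND3*, their kinases *CDK4* and *CDK6*, the inhibitors *CDKN1A*, *CDKN1B*, *CDKN2A* and *CDKN2C*, and the retinoblastoma gene *RB1*. They were found by symbol among the 60651 genes that each library's table lists, and all 10 had a row. Gene-level RNA sequencing was available for 6 libraries of total RNA from a human neuroblastoma cell line, 3 titled EtOH and 3 titled Tet. Per the labels, both groups were held under selection with 500 µg/ml G418 and 5 µg/ml blasticidin, and tetracycline was given for 5 days to switch a *MYCN* construct in cells carrying the tetracycline repressor. The EtOH libraries are tagged Control and the Tet libraries Induction. The titles name IMR575, a line with *MYCN* amplification, and the tag is called knockdown, whereas the protocol text describes single clones of SK-N-SH with inducible expression of *MYCN*. In the methods of the study, the IMR-5/75 model carries a tetracycline-inducible shRNA against *MYCN* and was selected with zeocin and blasticidin. The expression model was derived from SK-N-AS and selected with G418 and blasticidin at the doses that the labels give. The selection in the labels is thus that of the expression model and not that of IMR-5/75. Which way *MYCN* should move can therefore not be read from the labels, and every direction below compares the titles Tet and EtOH only. The labels do not say whether replicates were separate cultures. The methods of the study state that in vitro work used independent biological replicates unless stated otherwise, and the p-values measure the spread between these libraries.

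In G1, mitogen signals raise the D-type cyclins, which bind CDK4 or CDK6 and start to phosphorylate the RB protein. Phosphorylated RB lets go of the E2F factors, and E2F then switches on cyclin E and the genes of DNA replication. The INK4 inhibitors, among them the products of *CDKN2A* and *CDKN2C*, bind CDK4 and CDK6 themselves, while the CIP/KIP inhibitors p21 (*CDKN1A*) and p27 (*CDKN1B*) bind cyclin-CDK complexes, CDK2 complexes above all. In neuroblastoma this step is known for high cyclin D1 and CDK6, for amplification of *CDK4* in some tumours, and for the loss of G1 arrest in cells with *MYCN* amplification.

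The libraries held between 27933378 and 40498065 estimated counts, at which 3 counts are between 0.0741 and 0.107 CPM (counts rescaled so that libraries share one total). The RNA of *MYCN* did not tell the groups apart. It was at 158, 256 and 156 CPM in EtOH replicates 1 to 3. In Tet replicates 1 to 3 it was at 197, 200.1 and 145 CPM. The log2 fold change was -0.07 with SE 0.23 (edgeR adjusted p = 0.956). The study followed MYCN protein by western blot in both of its models, and protein was not measured here. *DDX1*, a neighbour of *MYCN* that is often amplified with it, was at 4184 to 4653 TPM, where TPM are counts divided by exon length and then rescaled in the same way. *MYC* had 8 counts in all 6 libraries together. The study describes SK-N-AS as a line without *MYCN* amplification. Such levels of *DDX1* and *MYCN* go with the amplified line that the titles name. EtOH replicate 2 and Tet replicate 2 stood apart from the other 4 libraries, with scores of 84.2 and 47.3 on a first principal component that held 44.7% of the variance. The second component, with 25.7% of the variance, separated the titles. Its scores were -39.1 to -34.7 in the EtOH libraries and 26.4 to 48.1 in the Tet libraries. Of 8 noradrenergic neuroblastoma markers, 6 were above 1 TPM in all libraries, while *DBH* reached at most 0.402 and *TH* at most 0.0193 TPM. The summed level of these 8 markers was 650 to 696 TPM in libraries titled EtOH and 749 to 884 TPM in those titled Tet. The 6 mesenchymal markers summed to 88.6 to 163 TPM and 99.0 to 189 TPM, with 3 of 6 above 1 TPM in all libraries, and the Schwann cell, blood and endothelial lists had no gene above 1 TPM in all libraries. The part that such differences between libraries have in the results below was not tested. In bulk RNA, fewer cells of a type and less RNA per cell cannot be told apart.

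Measured per length, in TPM, *CDK6* and *CCND1* had the highest mean RNA levels among the members. *CDK6* had a mean of 269.6 TPM over the 6 libraries (range 188 to 389) and was at rank 188 of all genes. *CCND1* followed with 214 TPM (85.7 to 394) at rank 283. Next came *RB1* with 65.4 TPM (43.0 to 91.4) and *CDKN1B* with 43.9 TPM (24.3 to 72.2). These 4 genes, a kinase, its cyclin, their substrate and p27, made up the high end of the order. The other members were far lower: *CDK4* had a mean of 7.70 TPM (5.64 to 12.2) and *CDKN1A* 4.53 TPM (2.17 to 8.45). *CDKN2C* was at 2.39 TPM (1.77 to 3.04), *CCND3* at 0.815 TPM (0.480 to 1.03) and *CDKN2A* at 0.648 TPM (0.356 to 1.08). *CCND2* was all but missing, with 1 count in all 6 libraries together. Most neighbours in this order had overlapping ranges. The ranges were apart between *CDKN1B* and *CDK4*, between *CDKN2C* and *CCND3*, and between *CDKN2A* and *CCND2*. *CDK6* was above *CCND1* in 3 of 6 libraries, all of them titled EtOH.

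**Figure D1:**
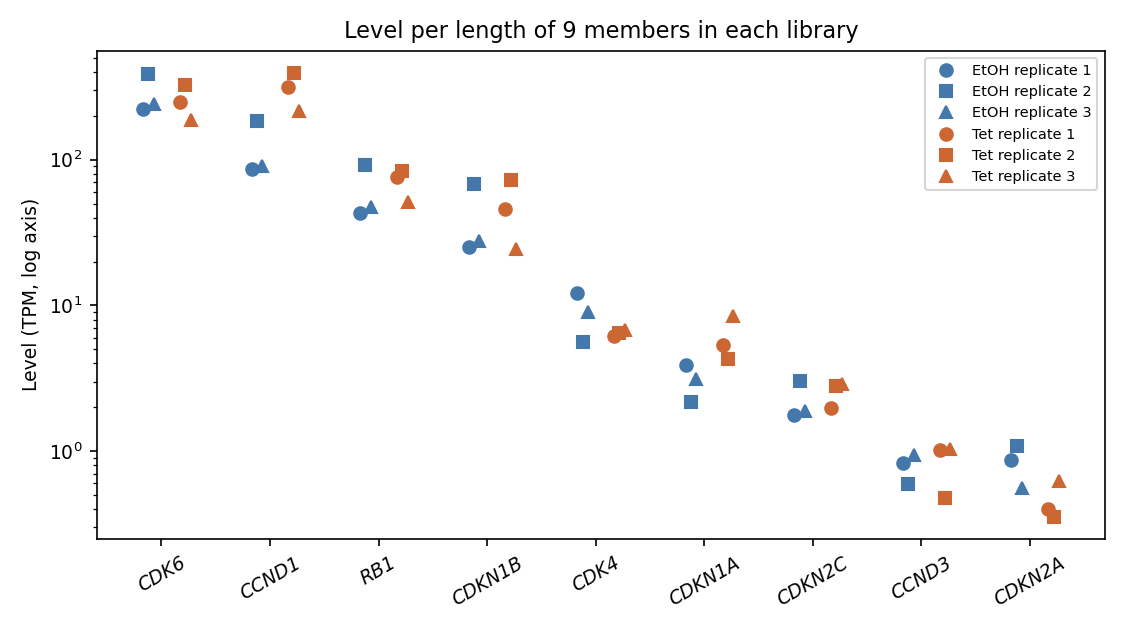
Level of 9 members in each library, in TPM on a log axis, ordered by their mean; blue symbols are libraries titled EtOH, orange symbols those titled Tet, and the shape gives the replicate number. CDK6, CCND1, RB1 and CDKN1B lie above 24 TPM in every library and the other members at 12.2 TPM or less, and only CCND1 and CDKN1A have all 3 Tet libraries above all 3 EtOH libraries; CCND2, with 1 count, is not drawn.

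The levels of different genes have to be read beside their base composition. Over all genes tested, the median level fell from between 14.1 and 21.7 TPM for transcripts with under 40% GC to between 0.536 and 1.24 TPM for those with over 60% GC, in each of the 6 libraries. The 4 abundant members have 37.1% (*RB1*), 39.7% (*CDK6*), 42.7% (*CDKN1B*) and 50.3% (*CCND1*) GC in their longest transcript. *CDK4* has 52.0%, *CCND3* 56.2%, *CDKN1A* 58.0%, *CDKN2C* 58.1% and *CDKN2A* 58.3%. *CCND1* and *CDK6* thus stood far above the median gene of their own GC class, whose median lay between 2.57 and 3.54 TPM for 50% to 55% GC and between 14.1 and 21.7 TPM for under 40%. *CDKN2A* (0.648 TPM) and *CCND3* (0.815 TPM) had means under the medians of 0.996 to 1.62 TPM of the class from 55% to 60%, although *CDKN2A* reached 1.08 TPM in EtOH replicate 2, where the class median was 0.996 TPM. The part of GC content in the order of levels was not tested.

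**Figure D2:**
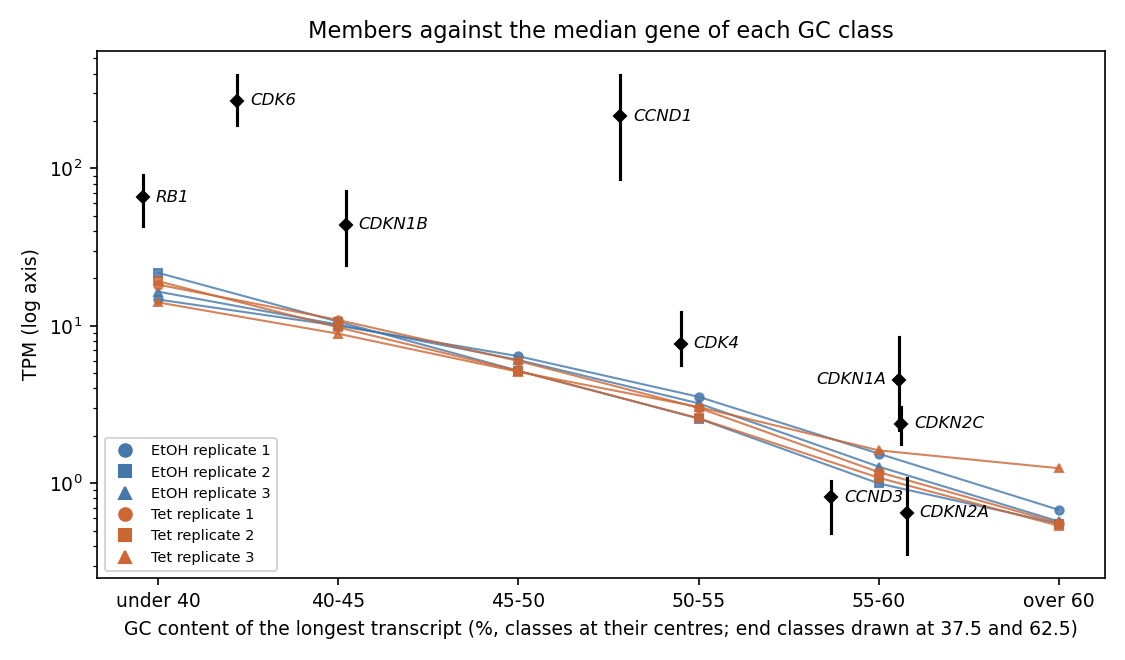
Mean level of 9 members over the 6 libraries (diamonds, with a bar from the lowest to the highest library) against the GC content of the longest transcript, in TPM on a log axis; the lines join the median level of all genes tested in each GC class, 1 line per library. The median gene falls from 14.1 to 21.7 TPM under 40% GC to 0.536 to 1.24 TPM over 60%, and Tet replicate 3 has the highest median, 1.24 TPM, in the last class.

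Between the titles, none of the 9 members that could be tested passed the threshold of edgeR at an adjusted p of 0.05, where 53 of 22443 genes (0.236%) did, 0.147% of all genes with higher and 0.0891% with lower levels in Tet. At an unadjusted p under 0.05, 2 members were called, *CCND1* and *CDKN1A*, against 10.8% of all genes tested. limma-voom called 0 members and 0.258% of all genes, and DESeq2 called 1 member, *CCND1*, and 2.02% of all genes. These 2 members were also the ones whose groups did not overlap, both with higher levels in Tet: 2 of 9 (22.2%), against 17.5% of all genes tested in either direction, 9.2% with higher and 8.28% with lower levels in Tet. Of the 9 log2 fold changes, 6 were above 0 and 3 below, against 49.3% and 50.7% of all genes tested, and the median was 0.29 where that of all genes was -0.01. The median was 0.54 without EtOH replicate 2, 0.14 without Tet replicate 3 and 0.09 without EtOH replicate 1, with 6 members above 0 in each. Without Tet replicate 2 it was 0.16, with 5 members above 0 and 4 below. *CCND2* was too low to be tested.

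**Figure D3:**
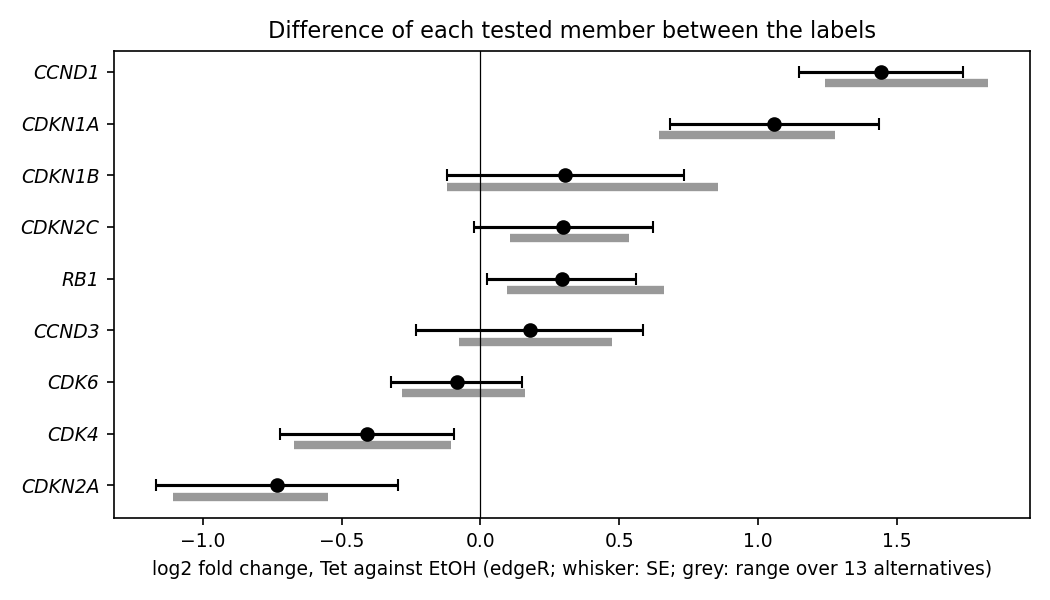
Log2 fold change of the 9 tested members, Tet against EtOH, from edgeR; the whisker is the SE and the grey bar spans the values under 13 alternatives. CCND1 (1.44) and CDKN1A (1.06) lie farthest above 0 and CDKN2A (-0.73) farthest below, and the grey bars of CDKN1B, CCND3 and CDK6 cross 0.

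Among the D-type cyclins, *CCND1* encodes cyclin D1, the form most often raised in neuroblastoma. The gene (ENSG00000110092.4) lies on the plus strand at chr11:69641156-69654474 of GRCh38. Its level was 151, 295 and 159 CPM in the EtOH libraries (replicates 1 to 3) and 533, 688 and 421 CPM in the Tet libraries (replicates 1 to 3). All 3 Tet libraries were above all 3 EtOH libraries, and within each group replicate 2 was the highest. The group means were 202 ± 81.1 and 547 ± 134 CPM (SD, n = 3 each), which is 2.71-fold higher in Tet. It missed the threshold at a log2 fold change of 1.44 with SE 0.30 (edgeR adjusted p = 0.110). It passed under DESeq2 (adjusted p = 0.00245), in edgeR without a filter on low counts (adjusted p = 0.00121, with 0.746% of all genes called) and in edgeR without EtOH replicate 2, where the log2 fold change was 1.83 (adjusted p = 0.00654, with 2.89% of all genes called). Without Tet replicate 2, the other library that stood apart, the log2 fold change was 1.24 (adjusted p = 0.351). With each library's levels corrected for GC content, an alternative added after the data had been seen, the log2 fold change was 1.42 (edgeR adjusted p = 0.174). Its sign was the same in all 13 alternatives, over which the adjusted p ranged from 0.000875 to 0.499.

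Part of the exon sequence of *CCND1*, 10.4%, is shared with *LTO1*, a gene on the opposite strand, and the counting of these files did not use the strand of a read. The shared stretches are chr11:69653076-69653319 and chr11:69654158-69654410, in the last part of *CCND1*. *LTO1* had 14.1, 9.16 and 15.9 CPM in the libraries titled EtOH and 23.2, 19.1 and 26.7 CPM in those titled Tet. Its level was far below that of *CCND1* in every library, and its groups did not overlap either (log2 fold change 0.81 with SE 0.25 and edgeR adjusted p = 0.264). Reads of these 2 genes in the shared stretches cannot be told apart.

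The other D-type cyclins added little. *CCND3*, encoding cyclin D3 (ENSG00000112576.13, minus strand, chr6:41934934-42050357), had 1.76, 1.15 and 1.98 CPM in the EtOH libraries (replicates 1 to 3) and 2.09, 1.02 and 2.44 CPM in the Tet libraries (replicates 1 to 3). Replicate 2 was the lowest library of each group and the groups overlapped (log2 fold change 0.18 with SE 0.41 and edgeR adjusted p = 0.934). *CCND2* (ENSG00000118971.9, plus strand, chr12:4269771-4305353) had its only count in EtOH replicate 2, a level of 0.0361 CPM, which is under that of 3 counts in any library. *CCND1* therefore made up between 99.0% and 99.9% of the summed TPM of the 3 D-type cyclins, and *CCND3* between 0.122% and 1.02%. With the length of the longest transcript in place of all exon bases, the lowest share of *CCND1* was 97.8%.

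The kinases that the D-type cyclins bind were present at unequal levels. *CDK6* (ENSG00000105810.10, minus strand, chr7:92604921-92836573) had 1016, 1613 and 1079 CPM in the EtOH libraries (replicates 1 to 3) and 1085, 1467 and 945 CPM in the Tet libraries (replicates 1 to 3). Replicate 2 was again the highest of each group, and the groups overlapped. The means of 1236 ± 328 and 1165 ± 270.2 CPM (SD, n = 3 each) gave a log2 fold change of -0.08 (with SE 0.24 and edgeR adjusted p = 0.949), which was 0.16 without EtOH replicate 2 and 0.05 without Tet replicate 3. *CDK6* shares 0.662% of its exon bases with an antisense gene.

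*CDK4*, the partner kinase that has the same substrate, had 14.0, 5.90 and 10.2 CPM in the EtOH libraries (replicates 1 to 3) and 6.72, 7.33 and 8.64 CPM in the Tet libraries (replicates 1 to 3). EtOH replicate 2 was the lowest of all 6 libraries and the other 2 EtOH libraries the highest. It missed the threshold at a log2 fold change of -0.41 with SE 0.31 (edgeR adjusted p = 0.720) and was -0.67 without EtOH replicate 2 (adjusted p = 0.131) and -0.11 without EtOH replicate 1 (adjusted p = 0.972). The gene (ENSG00000135446.17, minus strand, chr12:57747727-57756013) shares 44.2% of its exon bases with *TSPAN31*, which runs tail to tail with it on the plus strand. In the shared stretches, chr12:57747727-57748617, chr12:57749182-57749317 and chr12:57749454-57749795, each read pair was divided evenly between both genes, so the level of *CDK4* holds reads of *TSPAN31* and the reverse. *TSPAN31* was at 13.7, 7.87 and 13.8 TPM in the libraries titled EtOH and at 10.1, 7.26 and 9.82 TPM in those titled Tet, levels close to those of *CDK4*. The TPM of *CDK6* was between 18.3 and 69.1 times that of *CDK4*.

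RefSeq start sites on GRCh38.p14 were matched for 8 of the 10 members, all but *CCND1* and *CCND2*, and the 250 bases before each start were searched on both strands for an E-box (CACGTG, the site MYC proteins bind with MAX), a GC box (GGGCGG), an E2F site (TTTCCCGC, TTTGGCGC or TTTCGCGC), a CRE core (ACGTCA) and a TATA box (TATAAA). The 4 windows below are shown because they hold the E-boxes of *CDK4*, an E-box of *CDKN2C*, and the GC boxes of the most abundant kinase and of the inhibitor with the largest difference. Each is written 5′ to 3′ along the gene, with motif matches in capitals. They are *CDK4* at chr12:57752311-57752560 on the minus strand, *CDK6* at chr7:92836574-92836823 on the minus strand, *CDKN1A* at chr6:36678464-36678713 on the plus strand and *CDKN2C* at chr1:50969995-50970244 on the plus strand.
CDK4: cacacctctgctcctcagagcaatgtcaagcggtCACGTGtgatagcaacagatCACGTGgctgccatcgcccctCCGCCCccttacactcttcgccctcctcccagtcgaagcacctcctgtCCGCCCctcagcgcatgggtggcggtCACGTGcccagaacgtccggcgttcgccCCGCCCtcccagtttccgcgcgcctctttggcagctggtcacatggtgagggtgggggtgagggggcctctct
CDK6: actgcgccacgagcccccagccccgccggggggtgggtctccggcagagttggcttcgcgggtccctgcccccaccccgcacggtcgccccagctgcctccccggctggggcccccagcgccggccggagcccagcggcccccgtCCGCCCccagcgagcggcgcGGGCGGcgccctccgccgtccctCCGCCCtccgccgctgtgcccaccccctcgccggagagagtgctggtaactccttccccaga
CDKN1A: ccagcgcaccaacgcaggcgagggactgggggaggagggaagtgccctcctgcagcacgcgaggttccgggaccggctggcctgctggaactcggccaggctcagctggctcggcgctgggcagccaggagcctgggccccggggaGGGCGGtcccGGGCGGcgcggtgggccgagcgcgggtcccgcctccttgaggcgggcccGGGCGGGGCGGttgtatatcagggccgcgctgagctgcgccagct
CDKN2C: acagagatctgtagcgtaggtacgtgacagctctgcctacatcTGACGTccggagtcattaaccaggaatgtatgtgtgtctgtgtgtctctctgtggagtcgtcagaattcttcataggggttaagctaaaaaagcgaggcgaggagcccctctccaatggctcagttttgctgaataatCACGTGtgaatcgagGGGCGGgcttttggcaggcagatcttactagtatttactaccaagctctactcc
*CDK4* has 3 E-boxes, at -216, -196 and -101 from the start, and 3 GC boxes. The *CDKN1A* window has 4 GC boxes, of which those at -45 and -40 overlap by a base, and the *CDK6* window has 3. An E-box was found in 2 of the 8 members and a GC box in 7 of 8, *RB1* being the exception, while 6.32% and 42.5% of 34943 windows of this length held them. Members can have several windows, so these shares are not on the same footing, and the 1 window matched for *RB1*, at chr13:48476200-48476449, lies inside the gene and not before its first exon. The printed windows of *CDK4*, *CDKN1A* and *CDKN2C*, and every window of *CCND3* and *CDKN1B*, also lie inside the span of their gene. The printed *CDK6* window lies directly before its gene. No window of a member held an E2F site (2.31% of all windows) or a TATA box (10.8%), and a CRE core (7.09%) was found in *CDK6* and *CDKN2C*. These matches describe letters in the windows, and binding was not measured here.

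*CDKN1A* was the inhibitor that differed most between the titles. It encodes p21, a target of p53 and a gene that MYC proteins are known to repress through the factor MIZ1. The gene (ENSG00000124762.14) lies on the plus strand at chr6:36676460-36687337, and the antisense RNA *DINOL* overlaps 4.87% of its exon sequence, at 0.0705 to 0.935 CPM. The window before its RefSeq start, which lies inside this span, is the one printed above with 4 GC boxes. Its level was 4.31, 2.20 and 3.44 CPM in the EtOH libraries (replicates 1 to 3) and 5.65, 4.70 and 10.4 CPM in the Tet libraries (replicates 1 to 3). All Tet libraries were above all EtOH libraries, but the lowest Tet value was close to the highest EtOH value, and Tet replicate 3 stood well above the rest. The means were 3.32 ± 1.06 and 6.91 ± 3.04 CPM (SD, n = 3 each), 2.08-fold higher in Tet, and it missed the threshold at a log2 fold change of 1.06 with SE 0.38 (edgeR adjusted p = 0.354). Without Tet replicate 3 the log2 fold change was 0.64 (adjusted p = 0.646). Tet replicate 3 was also the library in which GC-rich genes were highest: over 60% GC the median gene had 1.24 TPM there and 0.536 to 0.677 TPM in the other 5 libraries, and the median log2 fold change of that class was 0.42. *CDKN1A* itself has 58.0% GC. In its own class, from 55% to 60%, the median gene had 1.62 TPM in Tet replicate 3 and 1.54 TPM in EtOH replicate 1. The median log2 fold change of its class was 0.09. With the GC correction the log2 fold change of *CDKN1A* was 0.89 (unadjusted p = 0.00363, edgeR adjusted p = 0.146).

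**Figure D4:**
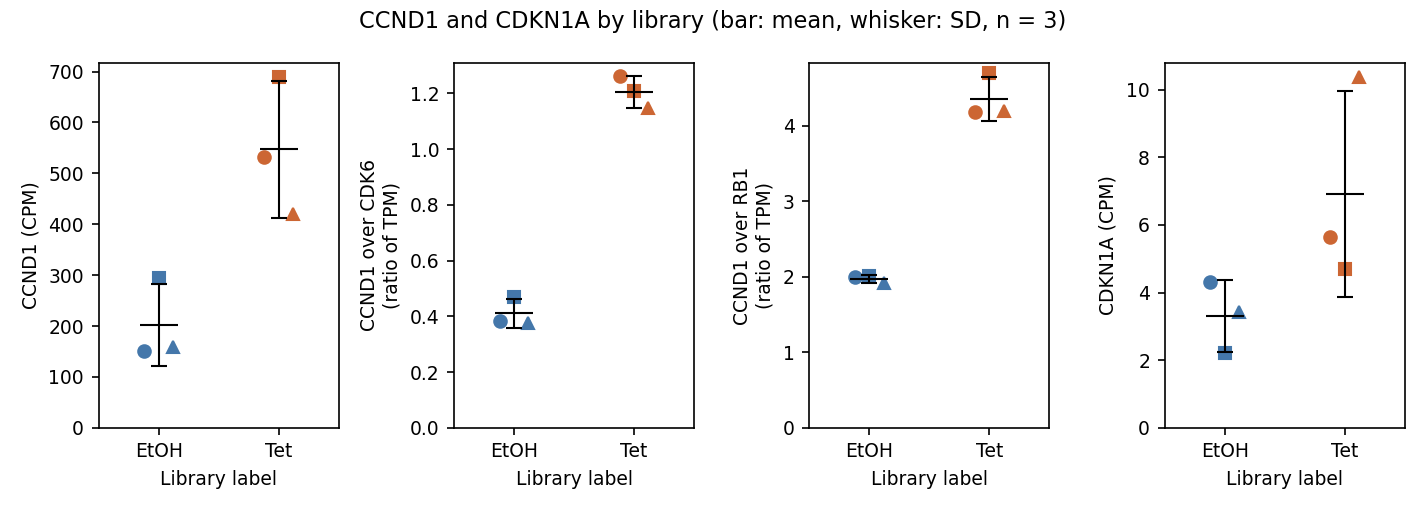
CCND1 in CPM, the ratios of CCND1 to CDK6 and to RB1 in TPM, and CDKN1A in CPM, for the 3 libraries titled EtOH (blue) and the 3 titled Tet (orange), with circles, squares and triangles for replicates 1, 2 and 3; the bar is the mean and the whisker the SD. In all 4 panels the Tet libraries lie above the EtOH libraries; the ratio to CDK6 is 0.378 to 0.471 in EtOH and 1.15 to 1.26 in Tet, and the highest CDKN1A value, 10.4 CPM, is that of Tet replicate 3.

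*CDKN1B*, encoding p27, was the most abundant of the 4 inhibitors. It made up between 67.0% of their summed TPM, in Tet replicate 3, and 91.6%, in EtOH replicate 2. The gene (ENSG00000111276.11, plus strand, chr12:12715058-12722369) shares no exon bases with another gene. Its level was 24.1, 59.3 and 25.9 CPM in the EtOH libraries (replicates 1 to 3) and 41.4, 68.0 and 25.5 CPM in the Tet libraries (replicates 1 to 3). Replicate 2 of each group was the highest of its group, and the groups overlapped. The log2 fold change was 0.31 (with SE 0.43 and edgeR adjusted p = 0.874), and leaving out 1 library moved it from 0.86, without EtOH replicate 2, to -0.12, without Tet replicate 2.

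Both INK4 members were low. *CDKN2A* (ENSG00000147889.18, minus strand, chr9:21967752-21995301), whose alternative first exons give an INK4 inhibitor and the p53 activator ARF that gene-level counts do not separate, had 1.26, 1.42 and 0.793 CPM in the EtOH libraries (replicates 1 to 3) and 0.549, 0.508 and 0.994 CPM in the Tet libraries (replicates 1 to 3). EtOH replicate 3 lay under Tet replicate 3, so the groups overlapped (log2 fold change -0.73 with SE 0.44 and edgeR adjusted p = 0.613). The value was -0.96 with the GC correction (adjusted p = 0.365). *CDKN2A* shares 15.3% of its exon bases with the antisense RNA *CDKN2B-AS1*, which had 5.29 to 7.20 CPM in the libraries titled EtOH and 4.96 to 6.73 CPM in those titled Tet. *CDKN2C* (ENSG00000123080.12, plus strand, chr1:50960745-50974634), the other INK4 gene, with an E-box in the window printed above, had 1.98, 3.10 and 2.08 CPM in the EtOH libraries (replicates 1 to 3) and 2.13, 3.10 and 3.55 CPM in the Tet libraries (replicates 1 to 3). Its groups overlapped (log2 fold change 0.30 with SE 0.32 and edgeR adjusted p = 0.823). The log2 fold change of *CDKN2C* was 0.11 with the GC correction and 0.14 without Tet replicate 3.

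*RB1*, the substrate of the cyclin D kinases, was read without overlap from another gene (ENSG00000139687.16, plus strand, chr13:48303744-48599436). Its level was 102, 199 and 112 CPM in the EtOH libraries (replicates 1 to 3) and 172, 198 and 136 CPM in the Tet libraries (replicates 1 to 3). EtOH replicate 2 was the highest of all 6 libraries, and the other 2 EtOH libraries were the lowest. The log2 fold change of 0.29 (with SE 0.27 and edgeR adjusted p = 0.782) was 0.66 without EtOH replicate 2 (adjusted p = 0.0777).

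*CCND1*, *CDK6* and *RB1* had the same highest library within each group, as had *CDKN1B*. Between the libraries of a group, the ratios among *CCND1*, *CDK6* and *RB1* varied less than their levels, which does not hold across the groups. These ratios were chosen after the values had been seen and are given with no test. The TPM of *CCND1* over that of *CDK6* was 0.383, 0.471 and 0.378 in the EtOH libraries and 1.26, 1.21 and 1.15 in the Tet libraries. In the EtOH libraries the kinase was thus above the cyclin, and in the Tet libraries the cyclin was above the kinase. *CCND1* over *RB1* was 2.00, 2.00 and 1.91 in EtOH and 4.18, 4.69 and 4.19 in Tet. *CDK6* over *RB1* went the other way, with a mean of 4.85 ± 0.513 in EtOH and 3.62 ± 0.291 in Tet (SD, n = 3 each). *CDKN1B* over *RB1* overlapped between the groups, at 0.581 to 0.747 and 0.472 to 0.861.

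Outside the members, a list of 61 further genes of the G1/S step was counted, of which 57 were tested. None passed the threshold in edgeR, and 8 of 57 (14%) had an unadjusted p under 0.05, 3 above 0 and 5 below, against 10.8% of all genes tested. limma-voom called 0 and DESeq2 called 3, where DESeq2 called 2.02% of all genes. The groups did not overlap for 8 of 57 (also 14%, against 17.5% of all genes tested), 4 in each direction. Their log2 fold changes were below 0 for 36 and above 0 for 21, with a median of -0.10, while 50.7% of all genes tested were below 0. This split rested on EtOH replicate 2: without it, 22 were below 0 and 35 above, with a median of 0.10 against 0.02 for all genes tested.

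**Figure D5:**
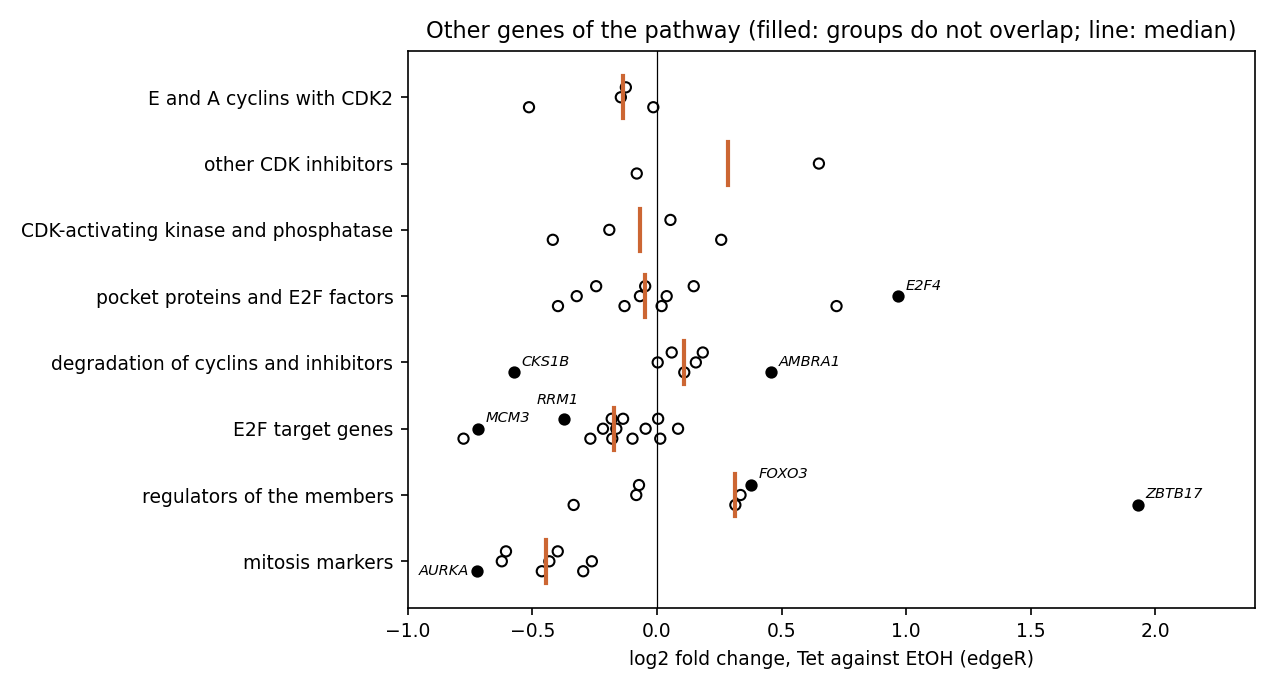
Log2 fold change, Tet against EtOH, of the 57 tested genes of the pathway list, by role; filled circles are the 8 genes whose groups do not overlap and the orange line is the median of the role. With all 6 libraries, all 8 mitosis markers and 11 of 14 E2F target genes lie below 0 (6 and 7 without EtOH replicate 2), and ZBTB17 lies farthest above it at 1.93.

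Upstream of the members, *ZBTB17*, which encodes the MIZ1 factor, had the lowest p of the regulators, followed by *FOXO3*, a forkhead factor known to act on *CDKN1B*. *ZBTB17* was at 0.363, 0.289 and 0.397 CPM in the EtOH libraries and at 0.922, 0.931 and 2.16 CPM in the Tet libraries. The groups did not overlap, and Tet replicate 3 was the highest, as for *CDKN1A* (log2 fold change 1.93 with SE 0.49 and edgeR adjusted p = 0.184, DESeq2 adjusted p = 0.0383). *ZBTB17* has 62.3% GC, and its log2 fold change was 1.54 with the GC correction and 1.40 without Tet replicate 3. *FOXO3* had 33.5, 46.0 and 37.9 CPM against 48.4, 55.3 and 48.7 CPM (log2 fold change 0.38 with SE 0.17 and edgeR adjusted p = 0.477). Of the 7 regulators tested, 4 were above 0 and 3 below.

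Among the genes that degrade cyclins and inhibitors, *AMBRA1*, the adaptor that sends D-type cyclins for degradation, had 19.5 ± 3.17 CPM in EtOH and 26.8 ± 3.57 CPM in Tet (SD, n = 3 each), with no overlap (log2 fold change 0.46 with SE 0.19 and edgeR adjusted p = 0.433). *CKS1B*, a cofactor of the ligase that removes p27, had 24.5 ± 4.84 and 16.5 ± 2.90 CPM, also with no overlap (log2 fold change -0.57 with SE 0.22 and edgeR adjusted p = 0.385). Of 7 genes in this role, 6 were above 0 and *CKS1B* alone below. *CDK7*, the kinase that activates other CDKs, had a log2 fold change of -0.42 (edgeR adjusted p = 0.544) and its partner *MNAT1* 0.26 (adjusted p = 0.703). The other inhibitors *CDKN2D* and *CDKN2B* were low, with log2 fold changes of 0.65 (adjusted p = 0.883) and -0.08 (adjusted p = 0.967), of which the first was -0.16 without Tet replicate 3 and the second 0.08 without EtOH replicate 2.

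Downstream of RB, the pocket proteins and E2F factors were split, with 5 above 0 and 6 below, and 8 above and 3 below without EtOH replicate 2. *E2F4*, an E2F that acts with pocket proteins in resting cells, had no overlap between the groups at 0.858 ± 0.188 CPM in EtOH and 1.67 ± 0.735 CPM in Tet (log2 fold change 0.97 with SE 0.42 and edgeR adjusted p = 0.455). *E2F4* has 59.3% GC and was highest in Tet replicate 3, at 2.52 CPM, and its log2 fold change was 0.54 without that library and 0.68 with the GC correction. *E2F5* had -0.40 (edgeR adjusted p = 0.609), and -0.12 without EtOH replicate 2. The E and A cyclins with their kinase CDK2 were below 0 for all 4 genes tested, but for 2 of 4 without EtOH replicate 2 and 2 of 4 without Tet replicate 3. *CCNA2* had 171 ± 60.1 and 119.8 ± 23.5 CPM (log2 fold change -0.51, edgeR adjusted p = 0.534), and its log2 fold change was -0.18 without EtOH replicate 2. *CDK2* had 15.7 ± 1.11 and 14.2 ± 1.79 CPM (log2 fold change -0.15, edgeR adjusted p = 0.854).

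Of 14 E2F target genes, 11 were below 0 and 3 above, with a median of -0.17. The groups did not overlap for 2 of 14 (14.3%), both lower in Tet. Of all genes tested, 17.5% had no overlap in either direction and 8.28% were lower in Tet. Without EtOH replicate 2 they were split into 7 below and 7 above, with a median of 0.04. *MCM3*, a subunit of the replicative helicase, had 46.4, 36.2 and 36.4 CPM in the EtOH libraries and 21.4, 24.3 and 26.6 CPM in the Tet libraries. Every Tet library was below every EtOH library (log2 fold change -0.72 with SE 0.17 and edgeR adjusted p = 0.170, DESeq2 adjusted p = 0.0494). *RRM1*, a subunit of ribonucleotide reductase, had 145, 139 and 127 CPM against 104, 122 and 91.1 CPM (log2 fold change -0.37 with SE 0.16 and edgeR adjusted p = 0.442).

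All 8 mitosis markers were below 0, with a median of -0.45, and 1 had no overlap, where 8.28% of all genes tested were lower in Tet with no overlap. Without EtOH replicate 2 the split was 6 below 0 and 2 above, *CDK1* at 0.22 and *TOP2A* at 0.01. *AURKA*, a mitotic kinase, had 27.6, 25.8 and 24.6 CPM in the EtOH libraries and 16.3, 16.0 and 14.9 CPM in the Tet libraries. Both groups were tight and far apart (log2 fold change -0.72, SE 0.16), yet the edgeR adjusted p was 0.131 and the DESeq2 adjusted p 0.0296. *CCNB1*, the cyclin of mitotic entry, had 68.4, 106 and 62.1 CPM against 52.4, 65.2 and 35.9 CPM, with overlap (log2 fold change -0.62 with SE 0.27 and edgeR adjusted p = 0.462). Without EtOH replicate 2, *AURKA* and *MCM3* passed the threshold in edgeR (adjusted p = 0.0452 and 0.0453), and the log2 fold change of *CCNB1* was -0.34.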

How the data were processed

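Total RNA depleted of ribosomal RNA was sequenced as paired-end libraries made with a stranded kit. The authors deposited 1 table of estimated counts by gene for each library, with no scaling. Per the file headers, reads were trimmed and mapped, and uniquely mapped pairs were assigned to exons by featureCounts 1.6.4, dividing a pair that overlapped several genes evenly and not using the strand. The submitters' processing notes name STAR 2.7.1a, featureCounts 1.5.1 and GRCh38, and the methods of the study state options that use the strand, so the headers were followed. Between 12.3% and 14.7% of values per library were not whole, and values were rounded to whole numbers for the tests, while printed CPM and TPM come from the values as deposited.

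Groups came from the titles. Genes were kept by filterByExpr, scaled by TMM and tested in edgeR 4.0.16 (quasi-likelihood F test, R 4.3.3), with Benjamini-Hochberg adjustment over all genes tested and a threshold of 0.05. The study used DESeq2, which is an alternative here (1.42.0), as are limma-voom (limma 3.58.1), RLE size factors, no filter on low counts, totals without mitochondrial genes and *MALAT1*, a replicate block, each library left out in turn, and a lowess correction (span 0.3) of each library for GC content, which was added after the data had been seen. The SE is the size of the log2 fold change over the square root of F. CPM are TMM-normalised. TPM were computed from counts and exon length, and only TPM were compared between genes. Groups overlap unless every library of one is above every library of the other. Depth limits cover counting error only. The edgeR step was also run on counts simulated gene by gene. These held no shift shared across a library, so they do not speak to the libraries that stood apart.

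The members and gene lists were chosen with earlier results of these data known. All members, *MYCN* and *DDX1* are named, as are the 2 tested genes with the lowest p in each role of the pathway list, and the genes most like the 3 members with the lowest p, of which those for *CDKN2A* are not reported here. Overlapping genes, the ratios and other single genes were named after their values were seen.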

Additional observations from a re-analysis of the deposited data

How the results depend on the processing

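Of 117 values (9 members under 13 alternatives), 108 kept their direction and their side of the threshold, 4 newly passed it and 5 changed sign. The 4 that passed were all *CCND1*: 1 member was called without a filter, 1 under DESeq2, 1 under the replicate block and 1 without EtOH replicate 2, and 0 in the other alternatives. Sign changes came only from leaving out 1 library: *CCND3* was -0.011 without EtOH replicate 2 and -0.077 without Tet replicate 3 (range -0.077 to 0.47), *CDK6* was 0.16 and 0.05 without the same libraries (range -0.28 to 0.16), *CDKN1B* was -0.12 without Tet replicate 2 (range -0.12 to 0.86), and *MYCN* was 0.21 without EtOH replicate 2 and 0.07 without Tet replicate 3 (range -0.22 to 0.21). The cause was not tested. Of all genes, 302 passed without a filter, 485 under DESeq2 and 113 with the GC correction, against 53. Leaving out 1 library gave 0 to 692 genes, 0 to 1 members and 0 to 2 pathway genes. The highest counts came without EtOH replicate 2, the library that stood farthest apart, and 0 genes passed without Tet replicate 1 or Tet replicate 3 (1865 and 2067 at an unadjusted p under 0.05 in edgeR). DESeq2 called 3 pathway genes, *ZBTB17*, *AURKA* and *MCM3*.

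The share of *CCND1* among D-type cyclins with the longest transcript as the length was 98.0% and 97.8% in EtOH replicates 1 and 3, and 99.3% and 99.0% in Tet replicates 1 and 3.

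The replicate numbers did not pair the libraries in every case: deviations of same-numbered libraries correlated at 0.0603, 0.510 and 0.219 for replicates 1, 2 and 3. The value for replicate 2 was the highest of any EtOH and Tet library. EtOH replicate 1 correlated best with Tet replicate 3 (0.379). With the replicate block 675 genes passed in edgeR, with *CCND1* (log2 fold change 1.48, adjusted p = 0.000875) and 3 pathway genes, *AURKA*, *MCM3* and *CCNB1*, among them.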

Other observations

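The genes whose level over the 6 libraries was most like that of a member were sought among 10090 other genes with a mean of at least 5 CPM, by the root mean square difference of centred log2 CPM. These values are a description over 6 libraries. For *CCND1* the nearest were *ABCA9* (0.147), the oxysterol hydroxylase gene *CYP7B1* (0.151) and *CNTN5* (0.156), a neural contactin. *CYP7B1* had 5.94, 11.6 and 7.14 CPM in the EtOH libraries and 17.5, 23.7 and 15.2 CPM in the Tet libraries. As for *CCND1*, replicate 2 was the highest of each group.

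For *CDKN1A* the nearest were *MARK4* (0.106), *CYTH2* (0.127) and the neural adhesion gene *L1CAM* (0.139), each highest in Tet replicate 3 and lowest in EtOH replicate 2. *L1CAM* had 9.05, 4.49 and 8.40 CPM in the EtOH libraries and 13.2, 12.7 and 23.2 CPM in the Tet libraries. None of these 6 genes passed the threshold (edgeR adjusted p from 0.177 to 0.428).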
